A study of Homo sapiens with 24 samples.

Results

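The 43 genes described here are a hand-made list of interferon-stimulated genes and genes of MHC class I antigen presentation, and their members were found by looking up the accession of every non-control probe of the arrays. Earlier results of these data were known when the list was chosen. Its shares of calls beside those of all genes are therefore descriptions and not tests. Of the 43 genes, 42 had a probe and 35 passed the filter on dim probes, out of 17902 named genes tested over all 24 arrays. The arrays measured RNA of PLC/PRF/5 and SNU-449, 2 established lines derived from human hepatocellular carcinoma. Each line was kept in 4 groups of 3 independent cultures, which were serum-starved overnight and then left untreated or given for 16 h recombinant human TGFβ1 at 1 ng/mL, galunisertib (LY2157299) at 10 µM, or both. No culture was given interferon, so the values describe the level these genes kept in the cells by themselves and how it moved with TGFβ1 and with galunisertib, which blocks the kinase activity of TGFBR1, the type I receptor for TGFβ. Levels are the log2 of a probe's intensity over the 75th percentile of its array. A level of 0 is therefore the 75th percentile, 1 unit is a 2-fold difference, and a level of -4.13 is the floor at which weak signals were set. Values at the floor have no spread, so the adjusted p of a gene at the floor in a group is too small. A gene was called at a limma adjusted p below 0.05, with Benjamini-Hochberg adjustment over all genes tested.

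The intensity at the 75th percentile ranged from 145 to 262 units over the arrays and the share of probes well above background from 41.6% to 49.6%. Each of the 12 PLC/PRF/5 arrays had all 6 hepatocyte markers well above background, 5 of them at medians of 3.59 or more and ALB at -0.22. In SNU-449, APOB was on no array well above background and ALB on 2, while APOA1, SERPINA1, TTR and AFP were well above background on all 12 at low medians, between -3.06 and -1.33. Of 4 mesenchymal markers, SPARC (median 5.23) and COL1A1 (6.26) were high in SNU-449 and dim or at the floor in PLC/PRF/5, VIM was high in both (8.47 and 7.55) and THY1 was at the floor in both. Of 6 leukocyte markers the T cell gene CD3E was well above background on 4 PLC/PRF/5 arrays and no SNU-449 array, LST1 on all PLC/PRF/5 arrays and no SNU-449 array, and ITGAM on 7 and 1. PTPRC and CD14 were dim in both lines, at medians between -3.07 and -2.20, while the B cell gene CD79A was bright in both, at medians of 4.34 and 4.26, a level at odds with the other leukocyte genes. The part of any leukocyte RNA in the results was not tested. The replicate number is also the slide, each group took the same position on all 3 slides, and the arrays with TGFβ1 lay in the second row, so position and treatment cannot be told apart. In bulk RNA of this kind, fewer cells that express a gene and less RNA in each cell cannot be told apart either.

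Interferon-stimulated genes are the output of a signal that starts when a cell detects foreign or misplaced nucleic acid. The helicases IFIH1 (MDA5) and DDX58 (RIG-I, now named RIGI) bind double-stranded RNA and cause the cell to make type I interferon. Interferon then acts through its receptor and Janus kinases on STAT proteins, and STAT2 together with IRF9 forms part of the complex that binds interferon-stimulated response elements (ISRE) in target promoters, while interferon gamma acts through gamma-activated sites (GAS) and through IRF1. The targets include proteins that block viral translation and entry (the IFIT and IFITM families, OAS and MX proteins), the ubiquitin-like ISG15 with the enzymes that attach and remove it, and the machinery that loads peptides on MHC class I. In that machinery PSMB8 and PSMB9 are catalytic subunits of the immunoproteasome, TAP1 and TAP2 form the peptide transporter of the endoplasmic reticulum, TAPBP (tapasin) bridges it to the class I molecule, and B2M is the light chain of every class I molecule.

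The promoters of the members show how much of the list the interferon response elements cover. Promoter windows from RefSeq (GRCh38.p14, 250 bases before to 50 bases after a transcription start) were found for 35 of the 43 members, and IFIT2, IFITM2, MX2, OAS2, OASL, IRF7, USP18 and HLA-E had no entry. The ISRE core, GAAA and after any 2 bases another GAAA, on either strand, was present in 25 of the 35 members (71.4%) and in 4.38% of all 27305 genes of the table (3.57% of the 35116 windows). The GAS core, TTCNNNGAA on either strand, was present in 11 members (31.4%) and in 9.38% of all genes (7.66% of the windows). Of the 35 members, 6 had neither, among them DDX58, IFI16 and PSMB9. A match is a description of these letters and not a bound site. The stretches below belong to members called with galunisertib in SNU-449 both without and with TGFβ1, which is the result most of the following text turns on. Capitals mark the motif matches, with ISRE cores in IFIH1, IFIT1, IFIT3, ISG20 and at the first start of TAP1, where neighbouring matches overlap in IFIH1 and TAP1, and GAS cores in IRF1, IFI35 and at the second start of TAP1. Every stretch is written 5′ to 3′ on the strand of the gene.
IFIH1, chr2:162318685-162318865, minus strand: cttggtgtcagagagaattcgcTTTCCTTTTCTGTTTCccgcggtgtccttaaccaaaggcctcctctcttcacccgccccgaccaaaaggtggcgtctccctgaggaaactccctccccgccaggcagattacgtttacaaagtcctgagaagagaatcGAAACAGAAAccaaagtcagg
IFIT1, chr10:89392485-89392551, plus strand: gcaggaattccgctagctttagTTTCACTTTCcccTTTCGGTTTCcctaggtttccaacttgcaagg
IFIT3 first start, chr10:89327819-89327906, plus strand: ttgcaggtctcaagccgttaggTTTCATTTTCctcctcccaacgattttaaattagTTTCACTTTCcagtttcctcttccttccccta
IFIT3 second start, chr10:89332413-89332509, plus strand: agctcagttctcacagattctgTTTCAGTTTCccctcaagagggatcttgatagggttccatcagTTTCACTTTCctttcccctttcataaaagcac
ISG20, chr15:88638925-88638978, plus strand: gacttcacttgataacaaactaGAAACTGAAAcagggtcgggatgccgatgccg
TAP1 first start, chr6:32853801-32853860, minus strand: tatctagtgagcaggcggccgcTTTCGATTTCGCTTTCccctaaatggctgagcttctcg
TAP1 second start, chr6:32852920-32852972, minus strand: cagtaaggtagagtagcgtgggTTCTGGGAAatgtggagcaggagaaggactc
IRF1, chr5:132490867-132490919, minus strand: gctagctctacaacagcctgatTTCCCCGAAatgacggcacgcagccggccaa
IFI35, chr17:43006740-43006783, plus strand: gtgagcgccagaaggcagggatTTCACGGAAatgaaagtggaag
TAP1 and PSMB9 are neighbours on opposite strands, with 488 bases between the first TAP1 start and the PSMB9 start. The ISRE matches of TAP1 lie between these starts, their far end 354 bases from the PSMB9 start and hence outside the window taken for PSMB9.

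Untreated SNU-449 cells held far more RNA of the sensor IFIH1, of the IFIT family and of the immunoproteasome than untreated PLC/PRF/5 cells. The sensors DDX58 and DDX60 were also called higher, but the DDX58 probes disagreed on the size and DDX60 was dim. Most IFITM genes, ISG20 and HERC5 were higher in PLC/PRF/5. Between the control cells of the lines, 18 of 35 members were called higher in SNU-449 and 8 lower, in a comparison in which 68.5% of all genes were called in either direction, 34.6% higher and 33.9% lower. The median difference of the members was 0.51 on the log2 scale, that of all genes -0.06, and that of the 28 members measured in both lines 0.14. At the limits drawn in the study, a fold above 2 and an unadjusted P below 0.001, 20 members passed, beside 34.3% of all genes. With arrays scaled to their median, 20 members were called higher and 4 lower. That scaling also shifted the median of all genes upward, and the share of all genes called under it is not given here. All calls held when any of the 6 arrays was left out.

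**Figure D1:**
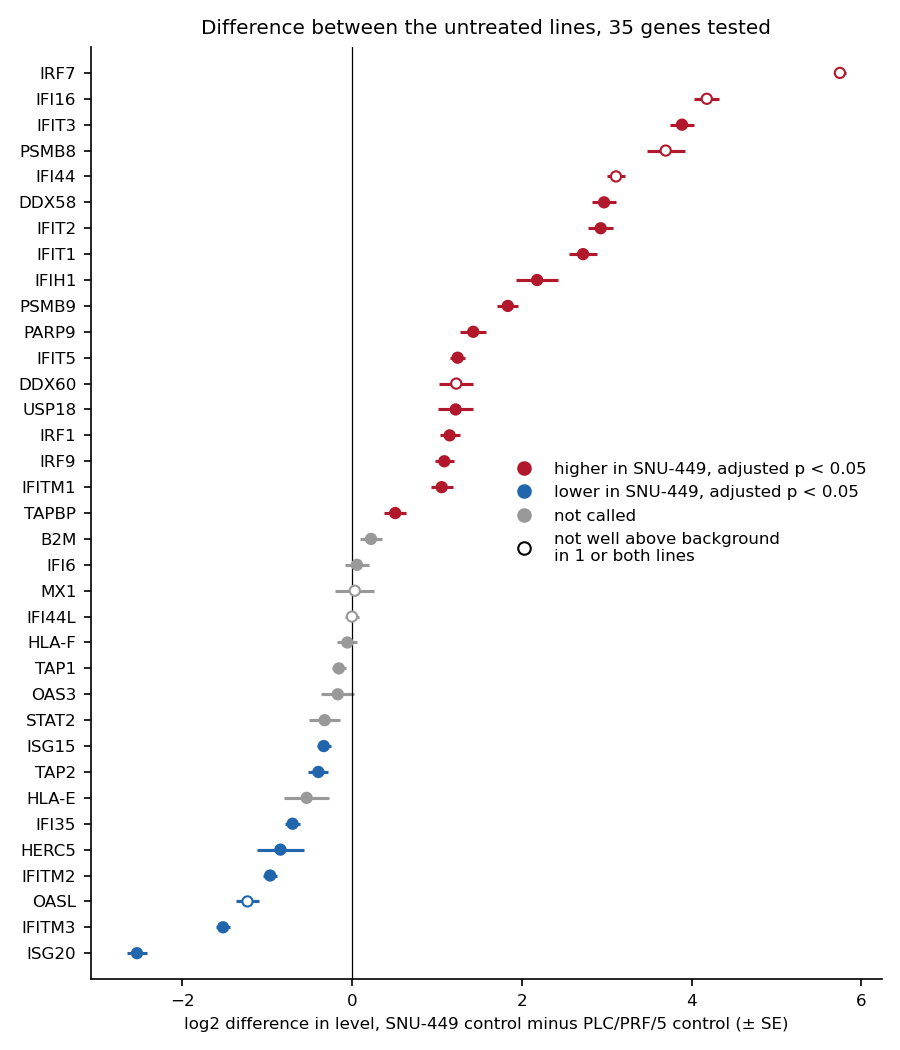
Log2 difference between untreated SNU-449 and PLC/PRF/5 cells for the 35 tested members (points, SNU-449 minus PLC/PRF/5, bars are the SE of the limma fit, n = 3 arrays per line). Open points are genes not well above background in 1 or both lines, filled points were measured in both, and the genes run from 5.75 for IRF7 to -2.53 for ISG20.

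All 3 sensors were higher in SNU-449. IFIH1 read 2.04, 1.90 and 1.95 on the SNU-449 control arrays and -0.38, -0.17 and -0.09 on those of PLC/PRF/5, a difference of 2.18 ± 0.25 (SE, n = 3, adjusted p = 1.94e-07), or 4.53-fold. DDX58 read 2.21, 2.78 and 2.79 against -0.57, -0.32 and -0.23, a difference of 2.97 ± 0.15 (SE, n = 3, adjusted p = 4.87e-13). The second DDX58 probe differed by 0.25 only, so the probes of this gene disagree on the size. DDX60, a helicase that assists RIG-I, was well above background in SNU-449 (-3.47, -2.55 and -2.70) and on no PLC/PRF/5 array, so that SNU-449 held at least 2.01-fold more (adjusted p = 2.04e-05), on a probe printed at the edge of the array.

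Of the 5 signalling members, 4 were higher in SNU-449 and STAT2 was not called. IRF7, the factor that amplifies interferon production, showed the widest gap of the list, with 1.49, 1.75 and 1.60 on the SNU-449 control arrays and no PLC/PRF/5 array well above background, at least 46.1-fold (adjusted p = 1.06e-22). IRF1 was higher by 1.15 ± 0.12 (SE, n = 3, adjusted p = 3.74e-08) and IRF9 by 1.09 ± 0.11 (SE, n = 3, adjusted p = 4.28e-08), with no overlap between the lines. The only IRF1 probe is printed at the edge of the array, which holds for all values of this gene. STAT2 lay at 3.14, 4.17 and 3.78 in SNU-449 and 4.09, 4.05 and 3.91 in PLC/PRF/5, overlapping ranges with a difference of -0.32 (adjusted p = 0.125). USP18, the protease that removes ISG15 and restrains the interferon receptor, was higher in SNU-449 by 1.22 ± 0.21 (SE, n = 3, adjusted p = 3.05e-05).

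The 4 IFIT genes, whose products bind viral RNA and block its translation, were all higher in SNU-449. IFIT1 read 1.43, 2.23 and 2.15 against -0.77, -0.74 and -0.86 in PLC/PRF/5, a difference of 2.72 ± 0.16 (SE, n = 3, adjusted p = 8.27e-12) or 6.6-fold. IFIT2 read 0.35, 0.65 and 0.79 against -2.68, -2.18 and -2.15, a difference of 2.93 ± 0.15 (SE, n = 3, adjusted p = 7.46e-13). IFIT3 was at -0.07, 0.07 and -0.02 in SNU-449, while of the PLC/PRF/5 control arrays it was well above background on 2, at -4.13, -3.42 and -4.13, close to or at the floor, and the fitted difference was 3.89 ± 0.14 (SE, n = 3, adjusted p = 3.99e-15). IFIT5 differed least of the 4, by 1.24 ± 0.09 (SE, n = 3, adjusted p = 3.19e-10). No SNU-449 control array overlapped with a PLC/PRF/5 control array for any of these genes.

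The IFITM genes encode membrane proteins that hinder the entry of viruses into cells, and they split between the lines. IFITM3 was among the brightest probes of the list, at 6.90, 6.95 and 6.86 in SNU-449 and 8.46, 8.46 and 8.35 in PLC/PRF/5, a difference of -1.52 ± 0.08 (SE, n = 3, adjusted p = 3.37e-12). IFITM2 followed with 6.65, 6.75 and 6.83 and 7.81, 7.72 and 7.59, a difference of -0.96 ± 0.08 (SE, n = 3, adjusted p = 1.88e-09). IFITM1 went the other way, with 0.18, 0.23 and 0.06 in SNU-449 and -1.13, -0.81 and -0.76 in PLC/PRF/5, 1.06 ± 0.13 (SE, n = 3, adjusted p = 5.59e-07). BST2 (tetherin), the other membrane member, was not tested, as its probe was not well above background on all arrays of any group.

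Several genes usually counted as the core of the interferon response were dim or at background in both lines. MX2, OAS1, OAS2, RSAD2, BST2, HERC6 and XAF1 had a probe that did not pass the filter on dim signals, and IFI27 is not analysed here because no probe carried a matching accession. MX1, a GTPase that traps viral particles, was well above background on 1 of the 6 control arrays. OAS3, an enzyme of the RNase L pathway, was measured in both lines and differed by -0.17 (adjusted p = 0.464). OASL, a relative of the OAS enzymes that acts on RIG-I, rose over background in untreated PLC/PRF/5 cells only (-2.46, -3.06 and -3.19), at least 2.23-fold lower in SNU-449 (adjusted p = 1.56e-07). ISG15 read 3.00, 2.97 and 2.98 in SNU-449 and 3.33, 3.30 and 3.32 in PLC/PRF/5, a difference of -0.33 ± 0.08 (SE, n = 3, adjusted p = 0.00176) that turned to 0.04 when arrays were scaled to their median, a scaling that moved the median of all genes from -0.06 to 0.28. HERC5, the ligase that attaches ISG15, read -1.82, -1.84 and -1.99 against -1.38, -0.88 and -0.87 and differed by -0.84 ± 0.28 (SE, n = 3, adjusted p = 0.012), also on an edge spot, and IFI35 differed by -0.70 ± 0.09 (SE, n = 3, adjusted p = 1.54e-06). Neither HERC5 nor IFI35 was called after median scaling.

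ISG20, an exonuclease that degrades viral RNA, had the largest excess in PLC/PRF/5. Its level was 3.80, 3.97 and 4.10 there and 1.31, 1.43 and 1.54 in SNU-449, a difference of -2.53 ± 0.12 (SE, n = 3, adjusted p = 2.33e-13), 5.79-fold. IFI16, a sensor of DNA in the nucleus and cytoplasm, was well above background on no PLC/PRF/5 control array and read -0.08, 0.08 and 0.15 in SNU-449, at least 15.6-fold higher (adjusted p = 2.36e-15). IFI44 was likewise at background in PLC/PRF/5 and at -1.04, -0.92 and -1.10 in SNU-449, at least 7.41-fold (adjusted p = 7.84e-16). PARP9, which works with DTX3L in the interferon response, was higher in SNU-449 by 1.43 ± 0.15 (SE, n = 3, adjusted p = 7.2e-08). IFI6 and IFI44L were not called, IFI6 with a difference of 0.06 (adjusted p = 0.723) and IFI44L at background on all 6 control arrays.

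Of the antigen presentation genes, both immunoproteasome subunits were higher in SNU-449. PSMB8 was at background on all PLC/PRF/5 arrays and read -0.19, -0.14 and -0.98 on the SNU-449 control arrays, at least 11.1-fold higher (adjusted p = 1.49e-11). PSMB9 read 1.24, 1.57 and 1.56 in SNU-449 and -0.36, -0.36 and -0.41 in PLC/PRF/5, a difference of 1.84 ± 0.12 (SE, n = 3, adjusted p = 6.59e-11). TAPBP was higher in SNU-449 by 0.51 ± 0.13 (SE, n = 3, adjusted p = 0.00201), where its other 2 probes gave 0.27 and 0.04. TAP2 was lower by -0.40 ± 0.12 (SE, n = 3, adjusted p = 0.00607), a call that median scaling ended. B2M (0.22 (adjusted p = 0.141)), TAP1 (-0.15 (adjusted p = 0.11)), HLA-E (-0.53 (adjusted p = 0.0858)) and HLA-F (-0.05 (adjusted p = 0.691)) were not called. For HLA-E the second probe went the other way (0.48) and for HLA-F it gave -0.91, so these genes have no settled basal direction.

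In SNU-449, galunisertib alone raised IFIT2, IFIT3 and IFIT1, the immunoproteasome subunit PSMB9, the transporter subunit TAP1, and ISG20, IFI35, IRF1 and IFI16, while it lowered the sensor IFIH1. Of 33 members tested, 9 rose and 1 fell, where 5.35% of all genes rose, 2.08% fell and 7.43% changed in either direction. The members' median was 0.32 on the log2 scale and that of all genes 0.09, and 3 members passed the limits of the study, IFIT2, IFIT3 and IFIH1, beside 1.14% of all genes. The same 3 were the members called when arrays were scaled to their median, 2 higher and 1 lower.

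IFIT2 moved most among the rises. It read 0.35, 0.65 and 0.79 on the control arrays and 2.40, 2.02 and 2.37 on the galunisertib arrays, a rise of 1.67 ± 0.15 (SE, n = 3, adjusted p = 0.000347), 3.18-fold. A second IFIT2 probe rose by 1.13. IFIT3 read -0.07, 0.07 and -0.02 before and 1.14, 0.94 and 1.10 with galunisertib, a rise of 1.06 ± 0.08 (SE, n = 3, adjusted p = 0.000269). IFIT1 went from 1.43, 2.23 and 2.15 to 2.85, 2.56 and 2.91, 0.84 ± 0.19 (SE, n = 3, adjusted p = 0.027), and control replicate 1 lay well under the other two. In all 3 genes the galunisertib arrays lay above every control array. The IFIT1 call was lost without galunisertib replicate 1 or 3 (adjusted p up to 0.0789). IFIT5 was not called, at 2.11, 2.17 and 2.20 and 2.36, 2.09 and 2.28, overlapping ranges.

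IFIH1 moved against the others. Its level was 2.04, 1.90 and 1.95 on the control arrays and 0.60, 1.02 and -0.63 on the galunisertib arrays, a fall of -1.63 ± 0.32 (SE, n = 3, adjusted p = 0.0161), 3.1-fold lower. The galunisertib arrays spread widely, with replicate 3 far under the other two, and the call was lost without control replicate 1 (adjusted p = 0.0557). The sensor DDX58 was at 2.21, 2.78 and 2.79 and 2.54, 2.70 and 3.02, 0.16 (adjusted p = 0.604). DDX60 read -3.47, -2.55 and -2.70 on the control arrays, and on the galunisertib arrays it was well above background on 1 of 3 and otherwise at the floor, a fitted difference of -1.01 (adjusted p = 0.0505), just outside the call.

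Of the other interferon-induced members, ISG20 rose from 1.31, 1.43 and 1.54 to 2.17, 1.97 and 2.26, 0.71 ± 0.13 (SE, n = 3, adjusted p = 0.0106), and IFI35, a leucine zipper protein induced by interferon, from 1.29, 1.19 and 1.30 to 2.12, 1.81 and 1.93, 0.69 ± 0.12 (SE, n = 3, adjusted p = 0.00824). IRF1 rose from -0.21, 0.07 and -0.01 to 0.49, 0.41 and 0.63, 0.56 ± 0.13 (SE, n = 3, adjusted p = 0.0263), and IFI16 from -0.08, 0.08 and 0.15 to 0.52, 0.33 and 0.72, 0.48 ± 0.12 (SE, n = 3, adjusted p = 0.0387). None of these genes overlapped between the groups, and IRF1 was read from an edge spot. The call of IRF1 was lost without control replicate 1 or 3 or galunisertib replicate 1 or 3 (adjusted p up to 0.0869), and that of IFI16 without any control array or galunisertib replicate 1 or 3 (up to 0.123). IFI16 was also not called with the replicate number, which is the slide, as a block (adjusted p = 0.0526).

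Among the antigen presentation genes, PSMB9 rose from 1.24, 1.57 and 1.56 to 2.46, 2.18 and 2.36, 0.87 ± 0.12 (SE, n = 3, adjusted p = 0.00317), 1.83-fold. TAP1, its divergently transcribed neighbour, rose from 2.78, 2.90 and 2.95 to 3.43, 3.25 and 3.38, 0.48 ± 0.09 (SE, n = 3, adjusted p = 0.0105). PSMB8 read -0.19, -0.14 and -0.98 on the control arrays and 0.57, -0.61 and 0.39 on the galunisertib arrays, and B2M 4.69, 4.93 and 5.04 and 5.42, 5.00 and 5.41. In both, galunisertib replicate 2 was the lowest of its group and within the range of the controls, and neither gene was called (0.55 (adjusted p = 0.287) and 0.39 (adjusted p = 0.122)). Without that array 13 members were called in place of 10, the added ones being IRF7, B2M and PSMB8. Its share in the main result was not tested further.

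**Figure D2:**
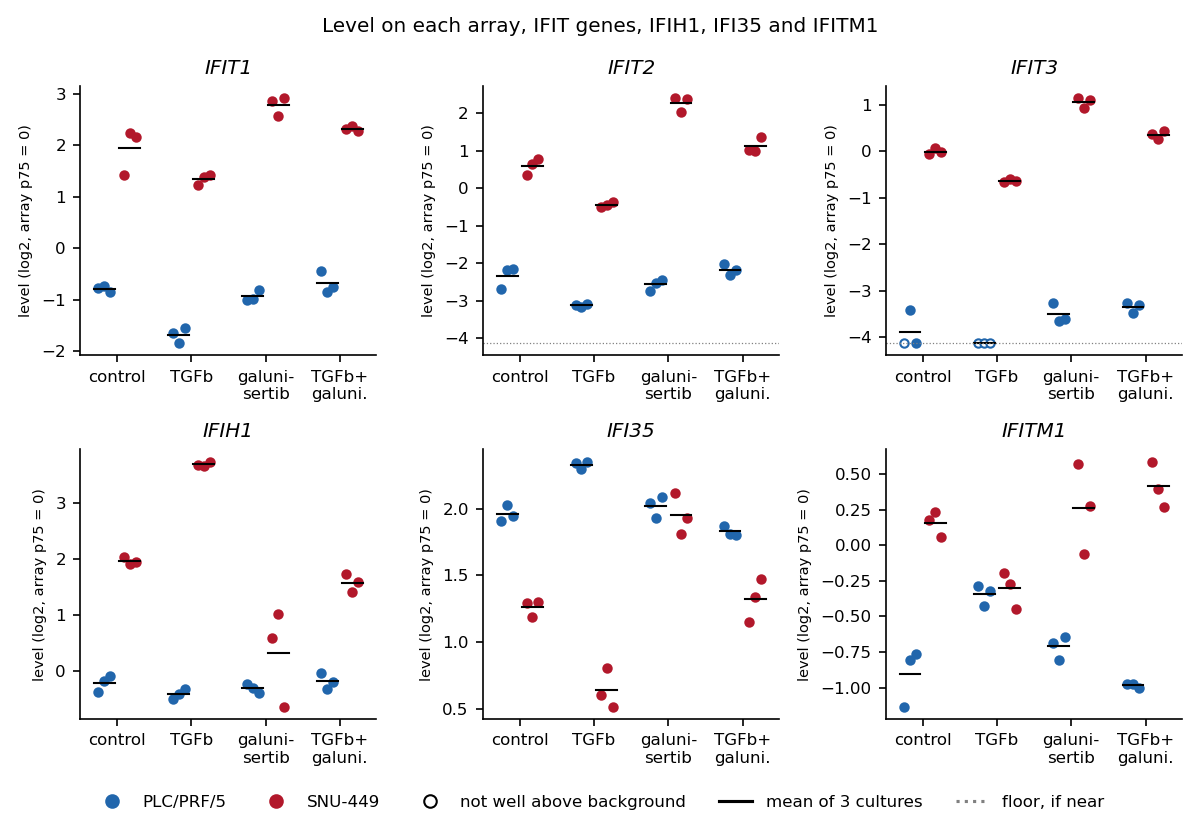
Log2 level relative to the array's 75th percentile for IFIT1, IFIT2, IFIT3, IFIH1, IFI35 and IFITM1 on each of the 24 arrays, by line and group (points are arrays, lines are group means, n = 3). In SNU-449 the IFIT2 points lie between 2.02 and 2.40 with galunisertib and below 1 in control cells, and IFIH1 shows the mirror image.

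In SNU-449, TGFβ1 raised the sensor IFIH1 and lowered IFIT2, IFIT3, IFI35, OAS3 and TAP2. Of 33 members, 3 rose and 5 fell, where 10.5% of all genes changed (5.73% higher and 4.75% lower). The members' median was -0.13 and that of all genes 0.02, and 2 members passed the limits of the study, beside 2.33% of all genes. TGFβ1 and galunisertib were compared with the same control arrays, so the signs of the pair are not independent and the values are given side by side.

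IFIH1 rose from 2.04, 1.90 and 1.95 to 3.67, 3.66 and 3.74 with TGFβ1, 1.72 ± 0.32 (SE, n = 3, adjusted p = 0.00717), 3.3-fold, with tight groups far apart. IFIT2 fell from 0.35, 0.65 and 0.79 to -0.50, -0.44 and -0.38, -1.04 ± 0.15 (SE, n = 3, adjusted p = 0.0017), and its second probe gave -0.89. IFIT3 fell from -0.07, 0.07 and -0.02 to -0.66, -0.61 and -0.64, -0.63 ± 0.08 (SE, n = 3, adjusted p = 0.000962). IFIT1 read 1.22, 1.38 and 1.41 with TGFβ1 against 1.43, 2.23 and 2.15 in control cells, groups that did not overlap but a difference that was not called (-0.60 (adjusted p = 0.0754)). IFI35 fell from 1.29, 1.19 and 1.30 to 0.60, 0.81 and 0.52, -0.62 ± 0.12 (SE, n = 3, adjusted p = 0.00767). OAS3 went from -2.29, -1.76 and -1.92 to -2.63, -2.69 and -2.64, -0.66 ± 0.15 (SE, n = 3, adjusted p = 0.0178), and TAP2 from -0.48, -0.68 and -0.60 to -0.99, -1.26 and -1.01, -0.50 ± 0.12 (SE, n = 3, adjusted p = 0.027).

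IFI44L, another interferon-induced gene, was well above background in the SNU-449 cells given TGFβ1 alone (-3.52, -3.02 and -3.16) and on none of the other arrays of either line. It was at least 1.77-fold higher than in control cells (adjusted p = 0.000677), which normexp background correction and the authors' table did not call. IRF1, not called (adjusted p = 0.063), was called lower with the replicate block, at -0.42 (adjusted p = 0.0374). IRF7 read 1.49, 1.75 and 1.60 in control cells and 2.09, 2.06 and 1.96 with TGFβ1, 0.42 ± 0.10 (SE, n = 3, adjusted p = 0.0205). The calls of IRF7, OAS3 and TAP2 depended on single arrays, IRF7 on TGFβ1 replicates 1 and 2 and control replicates 1 and 3 (adjusted p up to 0.0798), OAS3 on all but control replicate 1 (up to 0.0692) and TAP2 on TGFβ1 replicates 2 and 3 and control replicates 1 and 3 (up to 0.118). Without control replicate 3 or TGFβ1 replicate 2, 5 members were called. With median scaling IFIH1, IFIT2 and IFI44L remained called, 2 higher and 1 lower.

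Adding galunisertib to TGFβ1 in SNU-449 raised the 4 IFIT genes, OAS3, IFITM1 and both TAP subunits, and lowered IFIH1 and IFI44L. Against TGFβ1 alone, 13 of 33 members rose and 3 fell, where 17.1% of all genes changed (9.72% higher and 7.35% lower). The median of the members was 0.27, that of all genes 0.01, and 2 members passed the limits of the study, beside 3.81% of all genes. These arrays are not those of the comparison without TGFβ1, so the differences of both are separate measurements. Both come from the same fit with a shared estimate of each gene's spread, so their calls are not independent. Of the 33 members, 27 had the same sign in both (81.8%, all genes 61.6%). All 10 members called with galunisertib alone were called again in the same direction, which is 100% of that list and 62.5% of the 16 called here. Over all genes, 714 were called in both in the same direction, 59.7% of the first list and 26.0% of the second.

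IFIT2 read -0.50, -0.44 and -0.38 with TGFβ1 and 1.03, 0.99 and 1.38 with both agents, a rise of 1.57 ± 0.15 (SE, n = 3, adjusted p = 7.04e-05), 2.98-fold, and 1.54 on its second probe. IFIT3 rose from -0.66, -0.61 and -0.64 to 0.37, 0.27 and 0.43, 0.99 ± 0.08 (SE, n = 3, adjusted p = 3.2e-05). IFIT1 rose from 1.22, 1.38 and 1.41 to 2.31, 2.37 and 2.27, 0.98 ± 0.19 (SE, n = 3, adjusted p = 0.00553). All arrays of these 3 genes lay higher with both agents than with TGFβ1, and the IFIT1 arrays were now close together. IFIT5 rose from 1.89, 1.77 and 2.05 to 2.38, 2.27 and 2.21, 0.38 ± 0.10 (SE, n = 3, adjusted p = 0.0281).

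IFIH1 fell from 3.67, 3.66 and 3.74 to 1.73, 1.41 and 1.58, -2.11 ± 0.32 (SE, n = 3, adjusted p = 0.00141), 4.33-fold, to a level under that of control cells. IFI44L returned to the floor on all 3 arrays, at least 1.7-fold lower (adjusted p = 0.000392). IRF7 read 1.70, 1.68 and 1.69 with both agents, -0.35 ± 0.10 (SE, n = 3, adjusted p = 0.0332), and was not called with the replicate number as a block (adjusted p = 0.0611).

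OAS3 rose from -2.63, -2.69 and -2.64 to -1.99, -1.67 and -1.50, 0.93 ± 0.15 (SE, n = 3, adjusted p = 0.00176). IFITM1 rose from -0.19, -0.27 and -0.44 to 0.59, 0.39 and 0.27, 0.72 ± 0.15 (SE, n = 3, adjusted p = 0.00965), with 0.56 on its second probe, although galunisertib alone had left it uncalled (0.10 (adjusted p = 0.712)). IFI35 went from 0.60, 0.81 and 0.52 to 1.15, 1.34 and 1.47, 0.68 ± 0.12 (SE, n = 3, adjusted p = 0.00291), close to the level of control cells. IFI16 rose by 0.64 ± 0.12 (SE, n = 3, adjusted p = 0.00414), from -0.34, -0.31 and -0.36 to 0.46, 0.15 and 0.32, and ISG20 by 0.61 ± 0.13 (SE, n = 3, adjusted p = 0.00827), from 0.93, 1.03 and 1.27 to 1.75, 1.49 and 1.82. The groups of these 5 genes did not overlap, which with 3 arrays in each adds little to the calls. IRF1 read -0.52, -0.53 and -0.35 and -0.14, 0.09 and 0.29, 0.55 ± 0.13 (SE, n = 3, adjusted p = 0.0137).

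Of the antigen presentation genes, PSMB9 rose from 1.01, 1.12 and 1.22 to 1.65, 1.75 and 1.94, 0.66 ± 0.12 (SE, n = 3, adjusted p = 0.00462), TAP2 from -0.99, -1.26 and -1.01 to -0.43, -0.73 and -0.42, 0.56 ± 0.12 (SE, n = 3, adjusted p = 0.0109), and TAP1 from 2.73, 2.84 and 2.91 to 3.09, 3.06 and 3.18, 0.29 ± 0.09 (SE, n = 3, adjusted p = 0.0474). TAP1 was not called with the replicate block (adjusted p = 0.0558). The calls of TAP1 and IRF7 were lost without any 1 of the 6 arrays (adjusted p up to 0.154 and 0.107), that of IFIT5 without replicate 1 or 2 of either group (up to 0.118), and those of IRF1 and TAP2 without TGFβ1 replicate 2 (0.0578 and 0.052). With median scaling 5 members remained called, IFIT2, IFIT3 and OAS3 higher and IFIH1 and IFI44L lower.

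**Figure D3:**
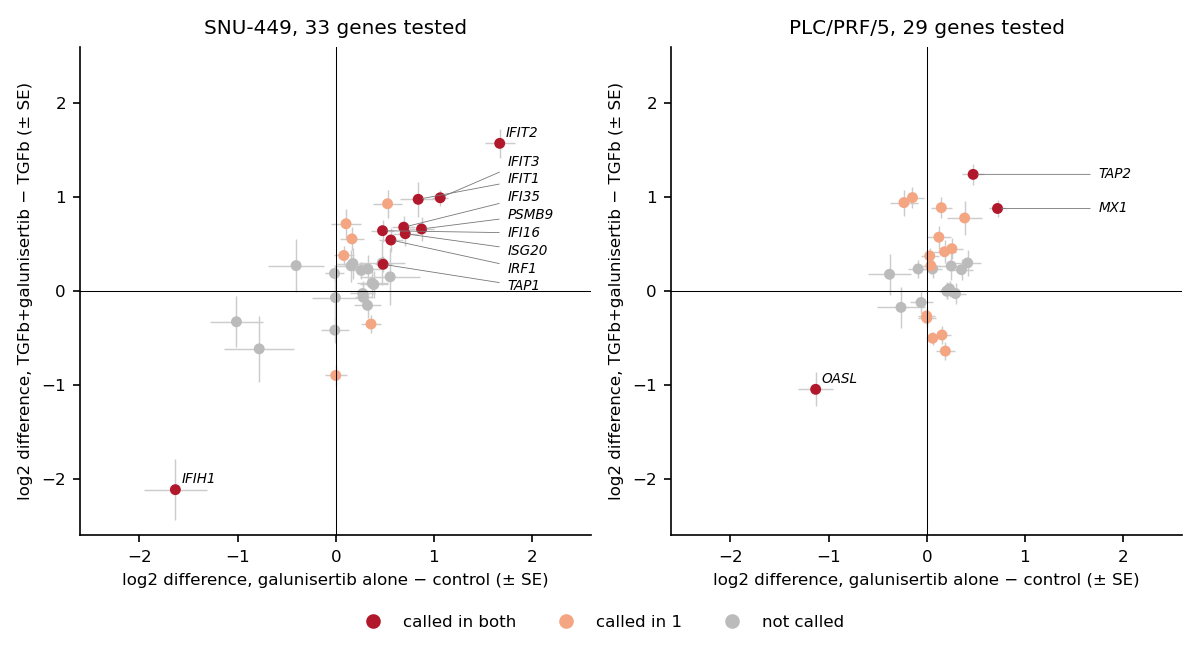
Log2 difference with galunisertib alone (against control, x axis) and with galunisertib added to TGFβ1 (against TGFβ1, y axis) for each tested member, SNU-449 and PLC/PRF/5 in separate panels. The comparisons share no array, labelled genes were called in both, and in SNU-449 IFIT2 lies at 1.67 and 1.57 while IFIH1 lies at -1.63 and -2.11.

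In SNU-449 cells given both agents, IFIT2, IFIT3 and IFI35 stayed under their levels with galunisertib alone. In this comparison 3 of 33 members fell and none rose, where 1.9% of all genes changed (0.938% higher and 0.963% lower). IFIT2 was lower by -1.13 ± 0.15 (SE, n = 3, adjusted p = 0.00613) and IFIT3 by -0.70 ± 0.08 (SE, n = 3, adjusted p = 0.00352), with arrays of 1.14, 0.94 and 1.10 with galunisertib and 0.37, 0.27 and 0.43 with both. IFI35 was lower by -0.63 ± 0.12 (SE, n = 3, adjusted p = 0.0283), a call lost without replicate 1 or 2 of the combination or replicate 1 or 3 of galunisertib (adjusted p up to 0.0831) and with the replicate block (adjusted p = 0.0682). These 3 genes were also among the 5 that fell with TGFβ1 alone, on other arrays but with the same estimate of spread. That is 37.5% of the 8 called there and 100% of the 3 called here. Over all genes, 161 were called in both in the same direction, 9.54% of the list with TGFβ1 alone and 52.6% of the list here. Of the members 57.6% had the same sign in both, and of all genes 54.3%. The second IFIT2 probe gave -0.48. IFIH1 read higher with both agents by 1.24 (adjusted p = 0.0921) and PSMB9 lower by -0.56 (adjusted p = 0.0551), neither called. Both were called without galunisertib replicate 2, which made 5 calls.

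In PLC/PRF/5, galunisertib alone changed few members. Of 29 tested, MX1 and TAP2 rose and OASL fell, where 5.42% of all genes changed (3.67% higher and 1.75% lower). The median of the members was 0.15 and that of all genes 0.05. With median scaling and in the authors' values 1 member was called, lower, and without scaling none. OASL read -2.46, -3.06 and -3.19 on the control arrays and was well above background on no galunisertib array, at least 2.01-fold lower (adjusted p = 0.00722). MX1 went the other way, from no control array well above background to -3.19, -3.52 and -3.38, at least 1.42-fold higher (adjusted p = 0.00235). Both genes are close to background, and normexp background correction called neither. TAP2 rose from -0.29, -0.29 and 0.01 to 0.36, 0.08 and 0.41, 0.47 ± 0.11 (SE, n = 3, adjusted p = 0.0409), lost without control replicate 1 or 2 or galunisertib replicate 1 or 3 (adjusted p up to 0.139). The IFIT genes that rose in SNU-449 were not called here, with -0.15 (adjusted p = 0.491) for IFIT1 and -0.23 (adjusted p = 0.351) for IFIT2.

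TGFβ1 lowered IFIT1, IFIT2, ISG20 and TAP2 in PLC/PRF/5 and raised IFITM1, IRF9 and IFI35. These are 3 rises and 4 falls of 29 members, where 13.5% of all genes changed (6.27% higher and 7.24% lower), and the members' median was -0.003 beside -0.04 for all genes. With median scaling 1 member was called, the fall of IFIT1, and without scaling none. IFIT1 fell from -0.77, -0.74 and -0.86 to -1.65, -1.84 and -1.55, -0.89 ± 0.12 (SE, n = 3, adjusted p = 0.000775), 1.86-fold. IFIT2 fell from -2.68, -2.18 and -2.15 to -3.12, -3.16 and -3.08, -0.78 ± 0.14 (SE, n = 3, adjusted p = 0.00464). ISG20 fell from 3.80, 3.97 and 4.10 to 3.35, 3.33 and 3.49, -0.57 ± 0.11 (SE, n = 3, adjusted p = 0.00693). For these 3 genes no array of one group reached the other. TAP2 fell from -0.29, -0.29 and 0.01 to -0.73, -0.63 and -0.58, -0.46 ± 0.11 (SE, n = 3, adjusted p = 0.0249), lost without control replicate 3 or any TGFβ1 array (adjusted p up to 0.0971).

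The rises were modest in size with tight groups. IFITM1 went from -1.13, -0.81 and -0.76 to -0.28, -0.43 and -0.32, 0.56 ± 0.10 (SE, n = 3, adjusted p = 0.00473), and its second probe gave 0.58. IRF9 went from 0.16, 0.29 and 0.32 to 0.89, 0.60 and 0.67, 0.46 ± 0.09 (SE, n = 3, adjusted p = 0.0089). IFI35 went from 1.91, 2.03 and 1.94 to 2.34, 2.30 and 2.35, 0.37 ± 0.07 (SE, n = 3, adjusted p = 0.00562). In SNU-449 IFI35 had fallen with the same agent and IFITM1 had read lower without a call (-0.46 (adjusted p = 0.0911)). IFIH1 read -0.38, -0.17 and -0.09 and -0.50, -0.40 and -0.32 and was not called (-0.19 (adjusted p = 0.246)).

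Adding galunisertib to TGFβ1 in PLC/PRF/5 raised 11 members and lowered 6 of 29, but 39.1% of all genes changed in this comparison (25.8% higher and 13.3% lower). The members' median was 0.24 and that of all genes 0.06. TAP2 rose from -0.73, -0.63 and -0.58 to 0.72, 0.53 and 0.54, 1.24 ± 0.11 (SE, n = 3, adjusted p = 2.95e-05), 2.37-fold, whereas its second probe rose by 0.28 only. IFIT1 rose from -1.65, -1.84 and -1.55 to -0.45, -0.84 and -0.76, 1.00 ± 0.12 (SE, n = 3, adjusted p = 0.000118), and IFIT2 from -3.12, -3.16 and -3.08 to -2.03, -2.30 and -2.19, 0.94 ± 0.14 (SE, n = 3, adjusted p = 0.000503). ISG20 rose from 3.35, 3.33 and 3.49 to 4.32, 4.12 and 4.39, 0.89 ± 0.11 (SE, n = 3, adjusted p = 0.00017). With both agents the IFIT1 and IFIT2 arrays read close to those of control cells and overlapped with them. The ISG20 arrays all lay above control, if narrowly (4.12 or more against 4.10 or less), and so did the TAP2 arrays. IFIT3 went from background to -3.26, -3.48 and -3.32, at least 1.72-fold (adjusted p = 0.0059), and MX1 from background to -3.26, -3.23 and -3.26, at least 1.84-fold (adjusted p = 4.56e-05). B2M rose from 4.41, 4.56 and 4.69 to 5.31, 5.02 and 5.05, 0.57 ± 0.12 (SE, n = 3, adjusted p = 0.00383).

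Smaller rises were measured for PSMB9, from -0.61, -0.43 and -0.32 to 0.05, -0.23 and 0.08, 0.42 ± 0.12 (SE, n = 3, adjusted p = 0.0185), for ISG15, from 3.1, 3.00 and 3.11 to 3.63, 3.32 and 3.38, 0.38 ± 0.09 (SE, n = 3, adjusted p = 0.00737), and for IFIT5, from 1.00, 1.02 and 1.07 to 1.31, 1.30 and 1.29, 0.27 ± 0.09 (SE, n = 3, adjusted p = 0.0331). DDX58 rose from -0.24, -0.28 and -0.05 to 0.37, 0.26 and 0.15, 0.45 ± 0.11 (SE, n = 3, adjusted p = 0.00824), but its second probe gave -0.24 and the mean of the probes was not called, so this gene has no settled direction here. OASL fell from -2.79, -2.88 and -2.82 to -3.78, -3.70 and -4.13, -1.04 ± 0.18 (SE, n = 3, adjusted p = 0.00123). IFITM1 fell from -0.28, -0.43 and -0.32 to -0.97, -0.97 and -1.0, -0.64 ± 0.10 (SE, n = 3, adjusted p = 0.00067), IFI35 from 2.34, 2.30 and 2.35 to 1.87, 1.81 and 1.80, -0.50 ± 0.07 (SE, n = 3, adjusted p = 0.000318), and IRF9 from 0.89, 0.60 and 0.67 to 0.34, 0.25 and 0.16, -0.47 ± 0.09 (SE, n = 3, adjusted p = 0.00291). The 3 genes that TGFβ1 had raised thus read near or under their control levels with both agents, in a comparison that shares the TGFβ1 arrays.

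HLA-F fell from 4.02, 3.93 and 3.98 to 3.77, 3.58 and 3.72, -0.29 ± 0.09 (SE, n = 3, adjusted p = 0.0273), with -0.53 on its second probe, and TAPBP from 4.21, 4.29 and 4.28 to 4.15, 3.90 and 3.94, -0.26 ± 0.08 (SE, n = 3, adjusted p = 0.0281), with -0.40 and -0.69 on its other probes. Calls lost when an array was left out were IFIT5 (any of the 6, adjusted p up to 0.0966), TAPBP (all but replicate 1 of the combination, up to 0.0968), HLA-F (TGFβ1 replicate 1 or 3 or combination replicate 2, up to 0.0958) and PSMB9 (TGFβ1 replicate 1 or combination replicate 1 or 3, up to 0.0781). The balance of directions depended on the scaling, with 10 higher and 1 lower after median scaling, which ended the calls of the falls of IFITM1, IFI35, IRF9, HLA-F and TAPBP, 6 and 1 without scaling, and 12 and 4 in the authors' table. The 3 members called with galunisertib alone, OASL, MX1 and TAP2, were all called again on these other arrays in the same direction, which is 100% of 3 and 17.6% of 17. Over all genes these shares were 72.7% and 10.1%, and both comparisons share the estimate of spread. Of the 29 members, 19 had the same sign in both (65.5%, all genes 68.3%).

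With both agents against galunisertib alone in PLC/PRF/5, IRF1 was lower by -0.44 ± 0.11 (SE, n = 3, adjusted p = 0.038) and IFIT5 higher by 0.34 ± 0.09 (SE, n = 3, adjusted p = 0.0428), the 2 calls of 29 members where 8.55% of all genes changed (3.59% higher and 4.96% lower). Their arrays read -0.80, -0.98 and -0.94 and -1.40, -1.44 and -1.20 for IRF1 and 0.90, 0.97 and 1.00 and 1.31, 1.30 and 1.29 for IFIT5. IRF1 was not called without replicate 1 or 2 of the combination or any galunisertib array (adjusted p up to 0.112), and IFIT5 without any 1 of the 6 arrays (up to 0.12). Neither was called with median scaling, without scaling or with the replicate block (adjusted p = 0.0585 and 0.0537), while quantile normalization called 3 members, all lower, and the authors' values 1, lower. None of the 7 members called with TGFβ1 alone was called here. Of the 2254 genes called with TGFβ1 alone, 233 (10.3%) were called here in the same direction and 75 in the opposite one. Of the members 31.0% had the same sign in both comparisons, and of all genes 54.3%.

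**Figure D4:**
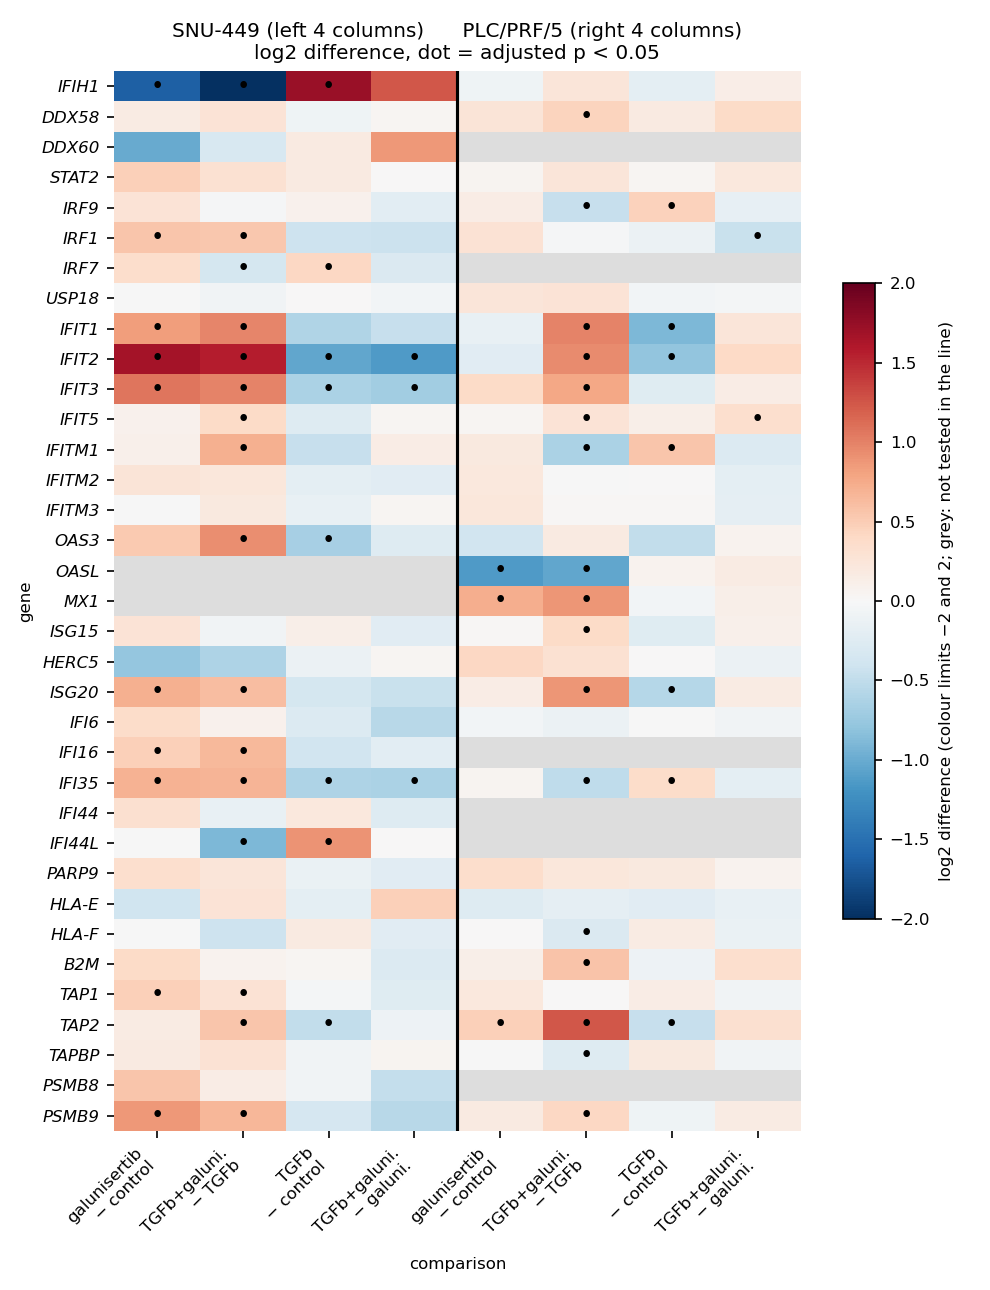
Log2 differences of the tested members in the 8 comparisons within a line (rows are genes grouped by role, columns are comparisons, colour limits at ±2, grey where a gene was not tested, dots where the adjusted p was below 0.05). IFIT1 to IFIT3 are red in both galunisertib columns of SNU-449 and IFIH1 is blue there.

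Whether the agents acted differently in the 2 lines was tested as the difference of the effects over all 24 arrays. For galunisertib alone, 8 of 35 members differed, 6 with the higher value in SNU-449 and 2 with the lower, where 5.87% of all genes did (3.43% and 2.44%). With median scaling the counts were 2 higher and 0 lower, and with quantile normalization 6 and 1. The IFIT2 effect was higher in SNU-449 by 1.90 ± 0.21 (SE, n = 3, adjusted p = 1.54e-05), IFIT1 by 0.99 ± 0.23 (SE, n = 3, adjusted p = 0.0125), PSMB9 by 0.69 ± 0.17 (SE, n = 3, adjusted p = 0.022) and IFI35 by 0.63 ± 0.13 (SE, n = 3, adjusted p = 0.00627), and that of IFIH1 was lower by -1.55 ± 0.35 (SE, n = 3, adjusted p = 0.0118). IFIT3 missed the call at 0.68 (adjusted p = 0.055). PSMB9 was lost without PLC/PRF/5 galunisertib replicate 1 or 2, SNU-449 control replicate 1 or SNU-449 galunisertib replicate 1 (adjusted p up to 0.0633). OASL (1.13), DDX60 (-1.01) and IRF7 (0.36) were at background in the line where they showed no effect, so that these differences carry what 1 line measured. Within SNU-449 itself neither DDX60 nor IRF7 was called with galunisertib alone. Their PLC/PRF/5 values at the floor have no spread, which lowers the estimate of spread over all 24 arrays. The DDX60 difference kept its call in 1 of 9 alternatives and that of IRF7 in 2 of 9. Without SNU-449 galunisertib replicate 2, 10 members differed, with IFIT3, ISG20 and PSMB8 added and DDX60 lost.

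For galunisertib added to TGFβ1, 14 of 35 members differed, 9 higher and 5 lower in SNU-449, where 29.1% of all genes did (12.2% and 16.9%). With median scaling the counts were 3 higher and 4 lower, and with the authors' values 3 and 5. IFI35 and IFITM1 changed in opposite directions in the lines. IFI35 rose by 0.68 in SNU-449 and fell by 0.50 in PLC/PRF/5, a difference of 1.18 ± 0.13 (SE, n = 3, adjusted p = 2.46e-06), and IFITM1 rose by 0.72 and fell by 0.64, a difference of 1.36 ± 0.18 (SE, n = 3, adjusted p = 2.48e-05). The IFIH1 effect was lower in SNU-449 by -2.35 ± 0.35 (SE, n = 3, adjusted p = 7.33e-05). TAP2 rose less in SNU-449, by -0.69 ± 0.17 (SE, n = 3, adjusted p = 0.00475). IFIT1 and IFIT3, which rose in both lines, were not called different, with differences of -0.02 ± 0.23 (SE, n = 3, adjusted p = 0.966) and 0.22 ± 0.20 (SE, n = 3, adjusted p = 0.475).

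For TGFβ1, 5 of 35 members differed, 3 higher and 2 lower in SNU-449, where 8.62% of all genes did (4.29% and 4.33%). With median scaling the counts were 2 higher and 0 lower, with quantile normalization 3 and 4, and with the authors' values 1 and 2. The IFIH1 effect was higher in SNU-449 by 1.92 ± 0.35 (SE, n = 3, adjusted p = 0.00129), that of IFI35 lower by -0.99 ± 0.13 (SE, n = 3, adjusted p = 4.37e-05) and that of IFITM1 lower by -1.02 ± 0.18 (SE, n = 3, adjusted p = 0.00114). IFI44L (0.90) and IRF7 (0.42) were at background on every PLC/PRF/5 array. The falls of IFIT1 and IFIT2 were not called different between the lines (0.30 (adjusted p = 0.515) and -0.25 (adjusted p = 0.563)).

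**Figure D5:**
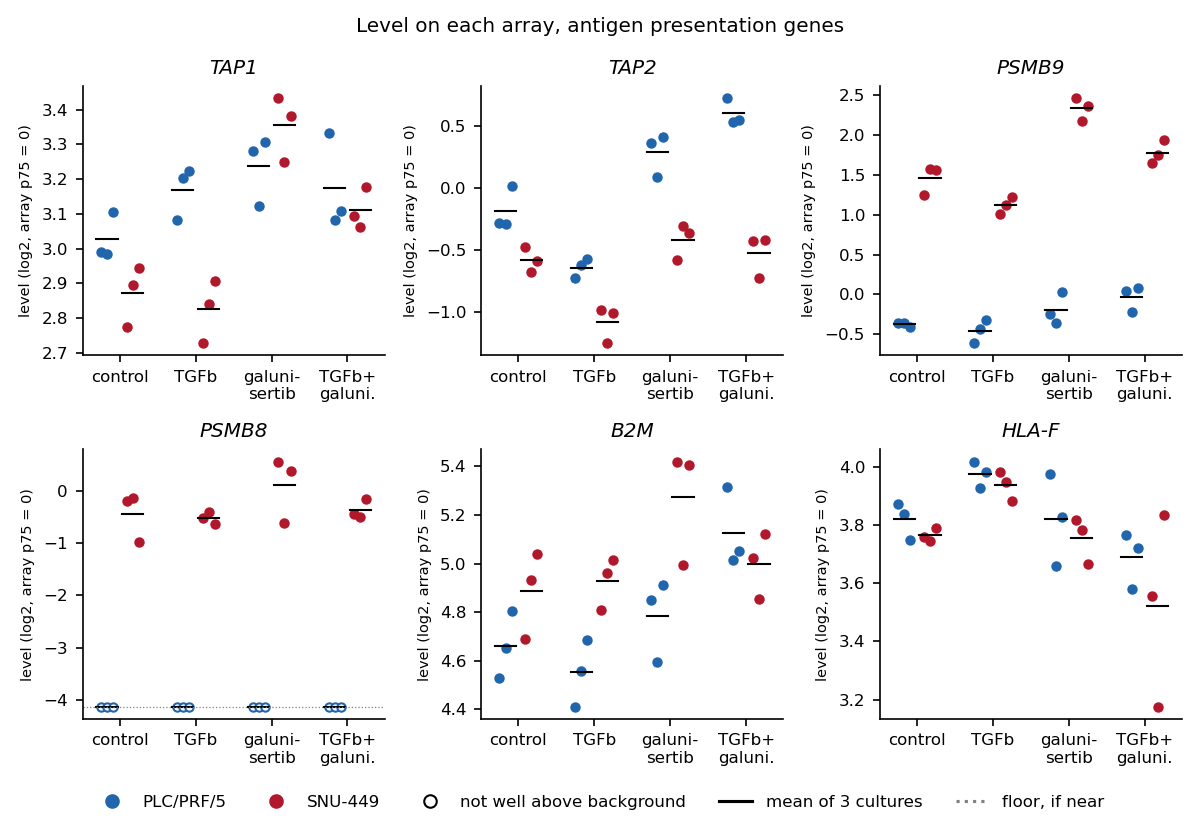
Log2 level relative to the array's 75th percentile of TAP1, TAP2, PSMB9, PSMB8, B2M and HLA-F on each of the 24 arrays, by line and group (points are arrays, lines are group means, n = 3). PSMB9 on the SNU-449 galunisertib arrays lies between 2.18 and 2.46, above all other arrays of either line, and PSMB8 sits at the floor of -4.13 in PLC/PRF/5.

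Other genes of the pathway were read from 3 hand-made lists, also chosen with earlier results of these data known. Of 26 signalling and sensing genes, 21 were tested between the lines, 7 higher and 7 lower in SNU-449, or 66.7% called beside 68.5% of all genes. The DNA sensor CGAS was at background in PLC/PRF/5, with SNU-449 above it by at least 14.1-fold, the feedback inhibitor SOCS3 was higher by 3.08 (adjusted p = 1.36e-14) and the kinase JAK2 by 2.51 (adjusted p = 2.35e-09). In SNU-449, 2 of 21 (9.52%) rose with galunisertib alone, where 5.35% of all genes rose, and the same 2 with galunisertib added to TGFβ1, where 9.72% did. They were TLR3, a sensor of double-stranded RNA in endosomes, at 0.92 (adjusted p = 0.0479) and 1.85 (adjusted p = 0.000511), and SOCS3, at 0.44 (adjusted p = 0.0189) and 0.68 (adjusted p = 0.000538). TLR3 fell with TGFβ1 by -1.34 (adjusted p = 0.00581), the single call of that comparison, so that among the RNA sensors TLR3 and IFIH1 moved in opposite directions. In PLC/PRF/5, 4 of 19 (21.1%) rose with TGFβ1 and none fell, beside 6.27% and 7.24% of all genes, among them JAK1 at 0.79 (adjusted p = 0.00424). With galunisertib added to TGFβ1, 4 rose and 3 fell, 36.8% called beside 39.1% of all genes, with JAK1 at -0.88 (adjusted p = 0.000708).

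Of 35 other interferon-stimulated genes, 34 had a probe and 29 were tested between the lines, 19 higher and 5 lower in SNU-449, or 65.5% and 17.2% beside 34.6% and 33.9% of all genes. GBP1, a GTPase induced by interferon gamma, was at least 35.2-fold higher in SNU-449, while the death ligand TNFSF10 was lower there by -6.09 (adjusted p = 6.82e-12). In SNU-449, galunisertib alone raised 6 of 27 (22.2%, all genes 5.35%) and lowered 2 (7.41%, all genes 2.08%), among them EPSTI1 at 0.96 (adjusted p = 0.00174), APOL6 at 0.94 (adjusted p = 0.00982) and the antiviral zinc finger protein ZC3HAV1 at -1.05 (adjusted p = 0.0402). TGFβ1 lowered 6 of 27 (22.2%, all genes 4.75%) and raised none, with TNFSF10 at -2.12 (adjusted p = 0.0149) and the GTPase GBP2 at -1.19 (adjusted p = 0.00413). Galunisertib added to TGFβ1 raised 9 (33.3%, all genes 9.72%) and lowered none, with TNFSF10 at 1.84 (adjusted p = 0.0205), GBP2 at 1.45 (adjusted p = 0.000788) and APOL6 at 1.19 (adjusted p = 0.000771). With TGFβ1 alone TNFSF10 (mean -3.83) and APOL6 (-3.64) lay near the floor, as EPSTI1 (-3.97) did in control cells. The sizes of their changes are limited by it. In PLC/PRF/5 the counts of 25 were 2 higher and 0 lower with galunisertib (8%, all genes 5.42%) and 1 and 2 with TGFβ1 (12%, all genes 13.5%). With galunisertib added to TGFβ1 they were 8 and 4 (48%, all genes 39.1%), where the scramblase PLSCR1 rose by 1.16 (adjusted p = 0.000122).

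Of 24 other antigen presentation genes, 20 were tested between the lines, 6 higher and 9 lower in SNU-449, or 75% called beside 68.5% of all genes. The peptide-trimming enzyme ERAP2 was higher in SNU-449 by 2.62 (adjusted p = 1.04e-14), CD274 (PD-L1) by at least 4.96-fold, and the class II chaperone subunit HLA-DMA lower by -3.35 (adjusted p = 1.01e-11). In SNU-449, ERAP2 rose with galunisertib alone by 0.54 (adjusted p = 0.00415), the single call of 20 (5%, all genes 7.43%), and TGFβ1 lowered 3 (15%, all genes 4.75%), CD274 at -0.64 (adjusted p = 0.0318), the proteasome activator subunit PSME1 at -0.40 (adjusted p = 0.0263) and ERAP2 at -0.31 (adjusted p = 0.0359). Galunisertib added to TGFβ1 raised 4 and lowered 1 (25% called, all genes 17.1%), among them CD274 at 0.84 (adjusted p = 0.0058). In PLC/PRF/5 galunisertib added to TGFβ1 raised 8 of 18 (44.4%, all genes 25.8%) and lowered none, with the class II gene HLA-DMB at 1.87 (adjusted p = 1.46e-05) and the immunoproteasome subunit PSMB10 at 1.04 (adjusted p = 5.5e-05), and TGFβ1 alone lowered 3 of 18 (16.7%, all genes 7.24%), HLA-DMB at -1.08 (adjusted p = 0.00137) among them.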

How the data were processed

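RNA of 24 cultures, 3 for each of 4 treatments in 2 lines, was labelled with Cy3 and hybridised to Agilent one-colour arrays, 8 on each of 3 slides scanned on 1 day. For each array the authors deposited the output of Agilent Feature Extraction 10.7.3.1 (version per the submitters' processing notes), whose processed signal is a linear intensity with background and spatial trend removed and no adjustment across arrays. Normalized log2 values of 30913 probes, deposited beside it by the authors, served as an alternative only. Across 19267 probes, their array-to-array differences followed those used here with a correlation of 0.999 and a slope of 1.00, after the authors had centred every probe at its median. Column medians of that table lay between -0.057 and 0.057. It left 0 columns without a sample.

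After removal of controls and outlier spots (111 to 216 of 62976 per array, none saturated), spots of 1 probe were averaged and their signal expressed relative to the array's 75th percentile. Values under 5.70% of that percentile, the typical (median) weakest signal that an array called well above background, were set to it, a log2 of -4.13, and values at this floor have no order. To enter a fit, a probe had to be well above background throughout 1 or more of its groups, and a gene was represented by its brightest probe. Of 58201 probes, 31104 were named by matching accessions to RefSeq genes (GRCh38.p14, for names alone, the array being of an older build), 10719 by an LNCipedia name, and 16378 had no name. The 42 members with a probe had 57 probes, 29 members 1 and 13 members 2 or more. Of the tested members, 24 were well above background on all 24 arrays.

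Within-line comparisons used limma 3.58.1 in R 4.3.3 (linear fit, contrasts, empirical Bayes) on the line's 12 arrays, and the basal comparison and differences between lines over all 24. An adjusted p is Benjamini-Hochberg over all genes of a fit, and a call is an adjusted p below 0.05. Statements that groups did not overlap describe the 3 arrays of each group. The share of all genes without overlap is not given. In the methods, a random variance t-test is named, in whose place limma was used. Where no array of a group was well above background, a lower bound of the fold is given, with each array of that group set to the weakest signal well above background, or to the probe's signal if higher. The fits were tested on simulated data with known changes. The deposited files hold no mean spot signal, so that normexp background correction (offset 50) used the median signal. Precision is limited by the 3 arrays in a group, and p-values measure the spread between these cultures. This does not hold for genes at the floor in a group, such as IRF7, IFI44, IFI44L and PSMB8. Their floored values are identical and add no spread, so their p-values are too small. Such genes passed the filter only through the groups in which they were measured.

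The members and lists were chosen with earlier results of these data known. Values on every array are given for members called within a line and for the 6 largest basal differences in each direction, and at most 3 genes per other list and comparison are named, those with the largest called differences. Samples of one replicate number, which is also the slide, deviated together in every pair (correlation above 0.1) in 3 comparisons, TGFβ1 against control (0.13 to 0.22 in SNU-449, 0.17 to 0.30 in PLC/PRF/5) and the addition of galunisertib to TGFβ1 in SNU-449 (0.10 to 0.27), and not in every pair elsewhere. Alternatives were other background corrections, scalings, floors, filters and probe rules, the authors' table and the replicate block. Further ones were fits of only the groups compared, a plain t-test and leaving out each array. That t-test shared no spread between genes, unlike the random variance t-test of the methods.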

Additional observations from a re-analysis of the deposited data

Results flagged for a closer look

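For the following members the effect of an agent differed between SNU-449 and PLC/PRF/5 by the limma test of the difference itself, at an adjusted p below 0.05, and each value is the log2 effect in SNU-449 minus that in PLC/PRF/5. With galunisertib alone the differences were -1.55 for IFIH1, -1.01 for DDX60, 0.36 for IRF7, 0.99 for IFIT1, 1.90 for IFIT2, 1.13 for OASL, 0.63 for IFI35 and 0.69 for PSMB9. With galunisertib added to TGFβ1 they were -2.35 for IFIH1, 0.44 for IRF9, 0.57 for IRF1, -0.35 for IRF7, 0.63 for IFIT2, 1.36 for IFITM1 and 0.75 for OAS3. The same comparison gave 1.04 for OASL, -0.44 for ISG15, 0.64 for IFI16, 1.18 for IFI35, -0.90 for IFI44L, -0.69 for TAP2 and 0.56 for TAPBP. With TGFβ1 the differences were 1.92 for IFIH1, 0.42 for IRF7, -1.02 for IFITM1, -0.99 for IFI35 and 0.90 for IFI44L.

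IRF7, DDX60 and IFI44L were well above background on no PLC/PRF/5 array, IFI16 on 1, and OASL on no SNU-449 array, so their differences rest on 1 line. Values at the floor have no spread, which makes the adjusted p of these differences too small. With galunisertib alone, DDX60 and IRF7 were not called within SNU-449 itself. Calls lost when 1 of the 12 arrays compared was left out were DDX60, IRF7 and PSMB9 with galunisertib alone (adjusted p up to 0.0991, 0.116 and 0.0633). With galunisertib added to TGFβ1 they were IRF9, IFIT2, OAS3, IFI16 and TAPBP (up to 0.123, 0.0828, 0.114, 0.0654 and 0.0719). The first and the third of these sets of differences share the control arrays, and the second and the third share the TGFβ1 arrays.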

How the results depend on the processing

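The number of members called within a line depended on the scaling. Shares over all genes are not given for the alternatives. The counts below, and those under other scalings above, therefore show only how the members' calls depend on the setting. Array medians ranged from 9.07 to 17.8 units, and at most 49.6% of probes on an array were well above background. Median scaling thus rests on weak signals. Without scaling, 75th percentiles between 145 and 262 units were left unequal. With arrays scaled to their median the members called were 3 with galunisertib alone in SNU-449, 3 with TGFβ1, 5 with galunisertib added to TGFβ1 and 1 with TGFβ1 added to galunisertib there, and 1, 1, 11 and 0 in PLC/PRF/5. Without scaling they were 3, 3, 5 and 1 in SNU-449 and 0, 0, 7 and 0 in PLC/PRF/5. The differences between lines kept 2 calls for galunisertib alone, 7 for galunisertib added to TGFβ1 and 2 for TGFβ1 under median scaling, and 2, 5 and 3 without scaling. With normexp, 5 members were called for TGFβ1 added to galunisertib in SNU-449, 0 for galunisertib alone in PLC/PRF/5 and 3 for the TGFβ1 difference. The authors' values gave 1 call for galunisertib alone and 1 for TGFβ1 added to galunisertib in PLC/PRF/5, and 4, 8 and 3 for the differences between lines. Keeping only probes measurable on each of the 24 arrays, the calls were 5 for TGFβ1 in SNU-449, 1 for galunisertib alone in PLC/PRF/5, and 5 and 3 for the differences with galunisertib alone and with TGFβ1. Without a filter they were 0 for TGFβ1 added to galunisertib in PLC/PRF/5 and 9 for the difference with galunisertib added to TGFβ1. Fits of only the groups compared called 3 with galunisertib alone and 0 with TGFβ1 added to galunisertib in SNU-449, and 1 and 0 in PLC/PRF/5. A plain t-test, which lacks the random variance model named in the methods, was also adjusted by Benjamini-Hochberg. It called 1, 5 and 0 in SNU-449 for galunisertib alone, TGFβ1 and TGFβ1 added to galunisertib, and 0, 4 and 0 in PLC/PRF/5. The test of the study itself was not run. The basal difference of ISG15, lower in SNU-449, reversed to 0.0384 under median scaling. In the basal comparison no alternative moved the count by over 1.5 times.

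With the replicate block, 9 members in place of 8 were called for TGFβ1 in SNU-449 (IRF1 added) and 14 in place of 16 for galunisertib added to TGFβ1 there (IRF7 and TAP1 lost). It changed no call for TGFβ1 in PLC/PRF/5. In these comparisons the samples of a slide deviated together in every pair. In the other comparisons same-numbered samples shared the slide too. There the block ended the calls of IFI16 for galunisertib alone and IFI35 for TGFβ1 added to galunisertib in SNU-449, and left 0 members called for TGFβ1 added to galunisertib in PLC/PRF/5, in place of 2. It added HLA-E to the basal calls (0.0412), ended DDX60 (0.0555) and IRF7 (0.0604) and added ISG20 (0.00709) for the difference with galunisertib alone, and exchanged OAS3 (0.0533) for B2M (0.0304) for that with galunisertib added to TGFβ1, each value an adjusted p of limma with the block.

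Leaving out 1 array at a time gave 26 to 27 calls for the basal comparison. In SNU-449 it gave 7 to 13 for galunisertib alone, 5 to 7 for TGFβ1, 11 to 15 for galunisertib added to TGFβ1 and 2 to 5 for TGFβ1 added to galunisertib, and in PLC/PRF/5 it gave 2 to 3, 6 to 7, 13 to 15 and 0 to 1. The differences between lines ranged from 6 to 10 for galunisertib alone, 10 to 13 for galunisertib added to TGFβ1 and 5 to 6 for TGFβ1. Over all members and comparisons called, 1082 values under the other alternatives kept direction and call, 259 lost the call and 1 reversed. The cause of these changes was not tested. Signals near background limit what can be said of MX1, OASL, DDX60, IFI44L and, in PLC/PRF/5, IFIT3. Among genes of the other lists this holds in SNU-449 for TLR3, TNFSF10, EPSTI1 and APOL6.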
